A study of Mus musculus with 9 samples.

Results

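The RNAs described here are 7 long non-coding RNAs of mouse kidney: Malat1, Neat1, Kcnq1ot1 and Meg3, which are known to act in the nucleus, and Gas5, Snhg1 and Snhg12, whose introns hold small nucleolar RNAs (snoRNAs). They were taken by name, and the list was chosen by how the share of library counts held by each RNA compared over the AKI_PTPi_mEVs, AKI_PBS and sham libraries, with earlier results of the same libraries in view. All 7 were found among 56923 gene identifiers, and all 7 were among the 17036 genes that passed a filter on low counts. None of them passed the filter through the AKI_PBS libraries alone. Counts per gene were available for kidneys of wild-type (WT) mice in 3 groups of 3 RNA sequencing libraries each. AKI_PTPi_mEVs mice had acute kidney injury (AKI) and received extracellular vesicles from milk that carried PTP1B siRNA. PTP1B is a tyrosine phosphatase, and its gene is Ptpn1. AKI_PBS mice had the injury and were given phosphate-buffered saline (PBS), and sham mice had the surgery without ischemia-reperfusion injury, with PBS as their labelled treatment. The role of PTP1B in the injured kidney is the question of the series, and here the same libraries are read for the 7 RNAs. Vesicles without the siRNA were not among the groups, so effects of vesicle and siRNA cannot be told apart. The title of AKI_PTPi_mEVs replicate 2 reads PTP@mEVs, where the other titles of the group read PTPi@mEVs. That library was grouped by its treatment label, PTPi@mEVs. The labels give no time after injury, no library batch, and no word on whether each library is a different animal. The p-values therefore reflect how far these libraries spread, which may be technical.

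Malat1 is among the most abundant nuclear RNAs and gathers in nuclear speckles, bodies rich in splicing factors. Neat1 is the scaffold on which paraspeckles form, a separate kind of nuclear body built from RNA-binding proteins. Kcnq1ot1 and Meg3 come from imprinted loci, where only the copy from a given parent is active: Kcnq1ot1 is transcribed antisense within Kcnq1 and silences genes around it, and Meg3 belongs to the Dlk1-Dio3 cluster. Host RNAs such as Gas5, Snhg1 and Snhg12 release snoRNAs from their introns, and the snoRNAs guide the chemical modification of ribosomal and other RNAs. The spliced hosts are short-lived, because nonsense-mediated decay removes them when ribosomes read them. Many of them, Gas5 included, start with a run of pyrimidines, the 5′ terminal oligopyrimidine (TOP) tract known from mRNAs of the translation machinery.

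Library totals lay between 9467851 and 11389479 counts. Kidney identity was checked with 7 proximal tubule genes, which summed to 5993 to 9510 counts in each 1000000 library counts (CPM) in AKI_PTPi_mEVs, 2703 to 4119 in AKI_PBS and 8881 to 9994 in sham libraries. Ptpn1, the target of the siRNA, had 88.1 to 105 CPM in AKI_PTPi_mEVs, 130.0 to 169 in AKI_PBS and 83.6 to 92.5 in sham libraries. AKI_PBS replicate 3 stood apart in several values below, and results that turn on it are given with and without it.

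The promoters of 6 of the RNAs are shown first, so that the sequence at each start can be read beside the values: those of Gas5, Snhg1, Snhg12 and Malat1, whose 3 AKI_PBS libraries were above all other libraries, and those of Kcnq1ot1 and Meg3, whose AKI_PBS libraries were not. The sequences are RefSeq's on build GRCm38.p6, 70 bases before to 30 after an annotated start, read 5′ to 3′ on the strand of the gene. Capitals mark the core of the cyclic AMP response element, TGACGT, on either strand (ACGTCA is the same core on the other strand), and the run of C and T at the start where it is at least 6 bases long. Gas5 and Meg3 have 2 annotated starts each, and the downstream start of Gas5 and the upstream start of Meg3 are shown, since the other start of each held none of the marked features.
Gas5, chr1:161035096-161035195, plus strand: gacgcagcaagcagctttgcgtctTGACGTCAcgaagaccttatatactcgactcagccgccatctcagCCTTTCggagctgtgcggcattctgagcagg
Snhg1, chr19:8723417-8723516, plus strand: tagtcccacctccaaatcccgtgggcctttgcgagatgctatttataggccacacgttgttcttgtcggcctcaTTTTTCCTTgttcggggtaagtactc
Snhg12, chr4:132308608-132308707, plus strand: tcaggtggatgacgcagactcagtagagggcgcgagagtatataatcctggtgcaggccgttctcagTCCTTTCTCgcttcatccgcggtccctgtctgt
Malat1, chr19:5802643-5802742, minus strand: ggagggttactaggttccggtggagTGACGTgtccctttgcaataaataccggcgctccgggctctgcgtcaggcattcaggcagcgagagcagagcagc
Kcnq1ot1, chr7:143296518-143296617, minus strand: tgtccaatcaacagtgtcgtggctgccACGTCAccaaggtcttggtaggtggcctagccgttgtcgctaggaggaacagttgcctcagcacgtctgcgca
Meg3, chr12:109540926-109541025, plus strand: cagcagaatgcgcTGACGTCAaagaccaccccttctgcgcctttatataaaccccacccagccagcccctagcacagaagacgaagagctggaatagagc

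A TGACGT core that begins 60 to 40 bases before the start was found in Gas5, Malat1, Kcnq1ot1 and Meg3, whose shares did not behave alike. The core stood in this stretch in 1.14% of 32851 mouse promoters and anywhere in the 300 bases searched (250 before to 50 after the start) in 7.51%. The 2 matches in Gas5, and those in Meg3, are the overlapping strands of TGACGTCA. Malat1 holds a second core farther upstream, outside the sequence shown. Runs of C and T that hold the start or begin within 10 bases of it were 9 bases long in Snhg12 and Snhg1 and 6 in Gas5, against 5 in Meg3, 4 in Malat1 and 2 in Kcnq1ot1. A run of at least 9 was found in 6.3% of promoters and a run of at least 6 in 23.4%. Among 14 other snoRNA host RNAs with an annotated promoter, 6 had a run of at least 7 at any of their starts (42.9%). Among 9 TOP mRNAs 5 had one (55.6%), against 17.1% of 27025 genes. The run of 6 in Gas5 is below this length. The hypoxia core ACGTG, searched on both strands, was found in Malat1, Kcnq1ot1 and Snhg1 and in 19.62% of all promoters. The match in Malat1 and the upstream match in Kcnq1ot1 overlap the TGACGT core. Another match in Kcnq1ot1, 18 bases after the start, does not. The AP-1 site (TGANTCA), the E-box (CACGTG), the heat shock element (GAANNTTC) and the STAT site (TTCNNNGAA) were in none of these windows of 300 bases, where 7.81%, 7.15%, 7.86% and 8.30% of promoters hold them. The antioxidant element (TGACNNNGC), in 12.4% of promoters, was found in Kcnq1ot1, where it overlaps the TGACGT core. These matches describe letters in a window and show no binding.

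The plot of shares by library gives the level of each RNA in every library, and all levels are in CPM unless a scale is named.

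**Figure D1:**
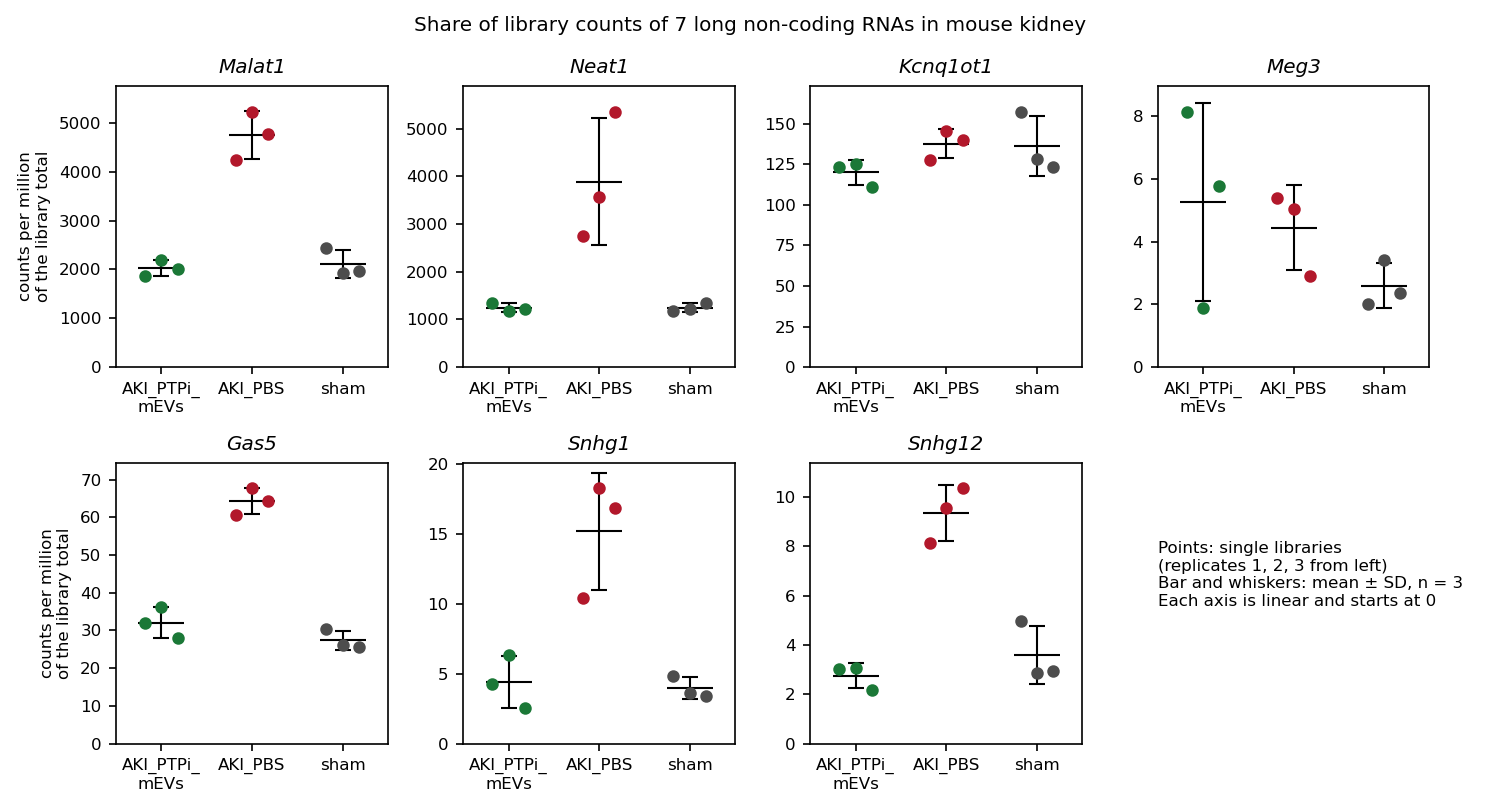
Share of library counts (CPM, linear axes from 0) of the 7 RNAs in AKI_PTPi_mEVs, AKI_PBS and sham kidneys. Points are single libraries and bars the mean ± SD (n = 3). For Malat1, Neat1, Gas5, Snhg1 and Snhg12 the 3 AKI_PBS points lie above every other point.

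Malat1, the speckle RNA, was the most abundant of the 7 in 8 of the 9 libraries. It made up 1872, 2196 and 2003 CPM in AKI_PTPi_mEVs kidneys, 4249, 5233 and 4765 in AKI_PBS kidneys and 2444, 1932 and 1968 in sham kidneys. The AKI_PBS libraries were all above the libraries of the other groups, which overlapped each other. Ranked by count among all genes, Malat1 stood between 13 and 22 in AKI_PTPi_mEVs, at 5 or 6 in AKI_PBS, and between 13 and 21 in sham libraries. The mean was 2024 ± 163 in AKI_PTPi_mEVs, 4749 ± 493 in AKI_PBS and 2114 ± 286 in sham libraries (SD, n = 3 each). The fitted log2 fold change, after scaling of the libraries by trimmed means (TMM), was 1.09 ± 0.15 (standard error, SE, as are all errors of log2 fold changes below) for AKI_PBS over sham, a 2.13-fold difference. It was -1.12 ± 0.15 for AKI_PTPi_mEVs over AKI_PBS and -0.03 ± 0.15 for AKI_PTPi_mEVs over sham. The list of RNAs was drawn up from these same contrasts, so the differences of all 7 are given as a description and without a test.

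Neat1, the paraspeckle scaffold, had 1348, 1171 and 1229 CPM in AKI_PTPi_mEVs kidneys, 2738, 3570 and 5356 in AKI_PBS kidneys and 1175, 1214 and 1347 in sham kidneys. Its AKI_PBS libraries were again above all others, and replicate 3 was far above the other two. The means were 1249 ± 90.1 in AKI_PTPi_mEVs, 3888 ± 1337 in AKI_PBS and 1245 ± 90.2 in sham libraries (SD, n = 3 each). The log2 fold change was 1.57 ± 0.23 for AKI_PBS over sham, -1.55 ± 0.23 for AKI_PTPi_mEVs over AKI_PBS and 0.03 ± 0.22 for AKI_PTPi_mEVs over sham. Without AKI_PBS replicate 3 the first was 1.22 and the second -1.19, which are close to the values of Malat1. In that library Neat1 was the 4th most counted gene, and the ratio of Neat1 to Malat1 counts was 1.12, against 0.644 and 0.682 in the other AKI_PBS libraries. The ratio was 0.720, 0.533 and 0.613 in AKI_PTPi_mEVs and 0.481, 0.628 and 0.685 in sham libraries, and these ranges overlap each other and that of the other AKI_PBS libraries.

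Together the 7 RNAs held 0.339%, 0.354% and 0.338% of library counts in AKI_PTPi_mEVs, 0.720%, 0.905% and 1.04% in AKI_PBS, and 0.382%, 0.331% and 0.347% in sham libraries. Malat1 and Neat1 made up 94.8% to 97.7% of that sum in every library. In bulk tissue, fewer cells of a type and less RNA per cell cannot be told apart, and a higher share of an RNA can also come with a lower share of others.

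Gas5, the host of a series of box C/D snoRNAs, had 32.1, 36.2 and 28.0 CPM in AKI_PTPi_mEVs kidneys, 60.7, 67.7 and 64.4 in AKI_PBS kidneys and 30.4, 26.2 and 25.7 in sham kidneys. The AKI_PBS libraries were above all others and lay close together, and the other groups overlapped. The means were 32.1 ± 4.10 in AKI_PTPi_mEVs, 64.3 ± 3.51 in AKI_PBS and 27.4 ± 2.57 in sham libraries (SD, n = 3 each). The log2 fold change was 1.15 ± 0.14 for AKI_PBS over sham, -0.90 ± 0.13 for AKI_PTPi_mEVs over AKI_PBS and 0.26 ± 0.14 for AKI_PTPi_mEVs over sham. Set against Malat1, there were 14 to 17.1 Gas5 counts per 1000 Malat1 counts in AKI_PTPi_mEVs, 13.0 to 14.3 in AKI_PBS and 12.4 to 13.5 in sham libraries. The ratio overlapped between AKI_PBS and sham, and lay slightly higher in AKI_PTPi_mEVs than in sham.

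Snhg1, another host of box C/D snoRNAs, was counted 47, 60 and 25 times in AKI_PTPi_mEVs kidneys, 114, 199 and 192 times in AKI_PBS kidneys and 48, 39 and 36 times in sham kidneys. That is 4.30, 6.34 and 2.58 CPM in AKI_PTPi_mEVs, 10.4, 18.3 and 16.9 in AKI_PBS and 4.86, 3.59 and 3.43 in sham libraries. Every AKI_PBS library was above every other library. Counting error alone put the lowest AKI_PBS library at 8.68 to 12.5 and the highest of the other 6 at 4.92 to 8.16 CPM (95% Wilson intervals, which cover counting error only). The log2 fold change of Snhg1 was 1.87 ± 0.31 for AKI_PBS over sham and -1.69 ± 0.31 for AKI_PTPi_mEVs over AKI_PBS, and it was 0.18 ± 0.33 for AKI_PTPi_mEVs over sham.

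Snhg12, whose introns hold Snora16a, Snora44, Snora61 and Snord99, had 33, 29 and 21 counts in AKI_PTPi_mEVs kidneys, 89, 104 and 118 in AKI_PBS kidneys and 49, 31 and 31 in sham kidneys. Its shares were 3.02, 3.06 and 2.16 CPM in AKI_PTPi_mEVs, 8.14, 9.56 and 10.4 in AKI_PBS and 4.96, 2.85 and 2.95 in sham libraries, again with every AKI_PBS library on top. The log2 fold change was 1.32 ± 0.26 for AKI_PBS over sham, -1.66 ± 0.27 for AKI_PTPi_mEVs over AKI_PBS and -0.34 ± 0.28 for AKI_PTPi_mEVs over sham. The 3 hosts summed to 39.4, 45.6 and 32.8 CPM in AKI_PTPi_mEVs, 79.3, 95.6 and 91.6 in AKI_PBS and 40.2, 32.6 and 32.1 in sham libraries.

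Kcnq1ot1, the imprinted antisense RNA, had nearly the same share in all groups. It stood at 123, 125 and 111 CPM in AKI_PTPi_mEVs kidneys, 128, 146 and 140.0 in AKI_PBS kidneys and 157, 128 and 123 in sham kidneys. The AKI_PTPi_mEVs libraries ended just below the AKI_PBS ones, and both overlapped the sham libraries. The log2 fold change was -0.06 ± 0.13 for AKI_PBS over sham, -0.10 ± 0.13 for AKI_PTPi_mEVs over AKI_PBS and -0.15 ± 0.13 for AKI_PTPi_mEVs over sham, each close to or within its standard error.

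Meg3, the imprinted RNA of the Dlk1-Dio3 cluster, was scarce and variable. It was counted 89, 18 and 56 times in AKI_PTPi_mEVs kidneys, 59, 55 and 33 times in AKI_PBS kidneys and 20, 37 and 25 times in sham kidneys. The AKI_PTPi_mEVs libraries held both the highest and the lowest count of the 9, and all groups overlapped. The shares of those libraries were 8.15, 1.90 and 5.77 CPM, and the 95% Wilson interval of the lowest, 1.20 to 3.01, did not reach that of the highest, 6.62 to 10.03. The log2 fold change was 0.68 ± 0.44 for AKI_PBS over sham, 0.36 ± 0.42 for AKI_PTPi_mEVs over AKI_PBS and 1.04 ± 0.44 for AKI_PTPi_mEVs over sham.

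**Figure D2:**
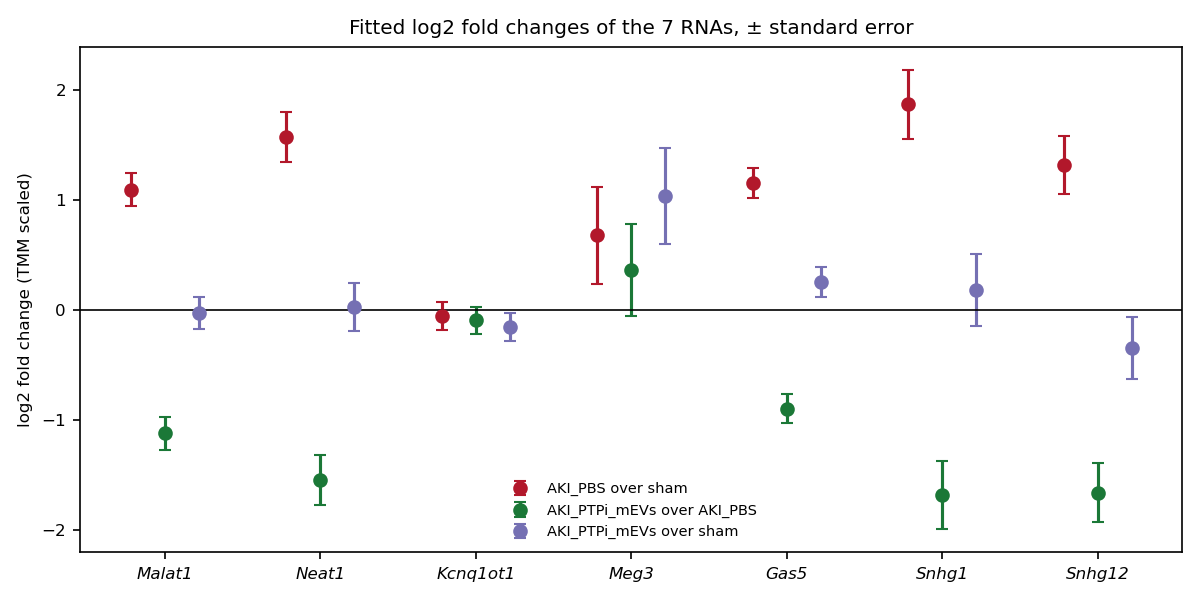
Fitted log2 fold changes (TMM scaled, ± SE, all 9 libraries in 1 fit) of the 7 RNAs in the 3 comparisons. Malat1, Neat1, Gas5, Snhg1 and Snhg12 lie between 1.09 and 1.87 for AKI_PBS over sham and between -1.69 and -0.90 for AKI_PTPi_mEVs over AKI_PBS, while Kcnq1ot1 lies near 0 in all 3.

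In AKI_PBS over sham, 5 of the 7 RNAs had shares that did not overlap between the groups, all higher in AKI_PBS, where 33.8% of all 17036 genes did the same and 28.2% separated in the lower direction. In AKI_PTPi_mEVs over AKI_PBS, 6 of the 7 had shares that did not overlap, all lower in AKI_PTPi_mEVs, against 33.1% of all genes lower and 24.9% higher, and Kcnq1ot1 was the sixth by a small margin. In AKI_PTPi_mEVs over sham 0 of the 7 separated, against 19.4% of genes higher and 19.3% lower. The first 2 comparisons share the AKI_PBS libraries, so a value that is high in those libraries enters both with opposite signs. Because these contrasts chose the RNAs, the shares are printed for scale only. The median log2 fold change over all genes was 0.03, -0.03 and -0.01 in the 3 comparisons, and with libraries scaled by their totals it was 0.11, -0.13 and -0.04, which is small beside the differences of Malat1, Neat1, Gas5, Snhg1 and Snhg12.

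Per kilobase of annotated exon (GENCODE M21, which need not be the annotation used for counting), Malat1 had the highest level and Meg3 the lowest. In sham kidneys the mean was 303 CPM per kilobase for Malat1, 59.96 for Neat1, 7.29 for Gas5, 1.495 for Snhg12, 1.47 for Kcnq1ot1, 1.33 for Snhg1 and 0.144 for Meg3. Snhg12, Kcnq1ot1 and Snhg1 did not differ beyond the spread of Snhg12, whose SD was 0.495. In AKI_PBS kidneys the order changed, with 5.11 for Snhg1 and 3.90 for Snhg12 against 1.48 for Kcnq1ot1, while in AKI_PTPi_mEVs kidneys the levels were 1.48 for Snhg1, 1.15 for Snhg12 and 1.29 for Kcnq1ot1. The exon length used for Kcnq1ot1 was 93.09 kilobases and that for Neat1 20.77, and reads from shorter forms of an RNA were not told apart.

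Some marker lists of other cell types differed between AKI_PBS and the other groups, and others did not. The 7 neutrophil genes summed to 2.11 to 2.32 CPM in AKI_PTPi_mEVs, 25.1 to 44.0 in AKI_PBS and 0.553 to 1.01 in sham libraries, where S100a8, Retnlg and Mmp8 had 0 counts. Of the 7, 6 passed the filter through AKI_PBS alone, so their calls support nothing and only the sums are given. The proximal tubule sum given above was lowest in AKI_PBS, with 6 of 7 genes called lower than in sham by edgeR (27.9% of all genes were called lower and 27.8% higher). The 4 podocyte genes summed to 169 to 184 in AKI_PTPi_mEVs, 246 to 381 in AKI_PBS and 159 to 226 in sham libraries, with 3 of 4 called higher in AKI_PBS over sham. Mitochondrially encoded genes summed to 0.967% to 1.11% in AKI_PTPi_mEVs, 1.55% to 1.71% in AKI_PBS and 1.29% to 1.78% of counts in sham libraries, so that AKI_PBS lay within the sham range. The upper end of that range was sham replicate 1 alone. Every AKI_PBS library was above sham replicates 2 (1.29%) and 3 (1.30%), and every AKI_PTPi_mEVs library was below all libraries of the other groups. Red blood cell genes summed to 20.6 to 45.1 in AKI_PTPi_mEVs, 120 to 274 in AKI_PBS and 85.8 to 128 in sham libraries, where AKI_PBS and sham overlapped. In AKI_PBS over sham, 1 of 6 macrophage genes was called higher and 2 lower, 2 of 6 endothelial genes higher and 1 lower, 0 of 5 fibroblast genes either way, 0 of 4 thick ascending limb genes higher and 3 lower, and the 1 measured lymphocyte gene lower. The part of these cells and of RNA content in the shares of Malat1, Neat1 and the hosts was not tested.

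For each RNA, the 3 genes whose pattern over the 9 libraries was most like it were found by the root mean square difference of log2 CPM after centring each gene on its mean, over 11303 genes. Malat1 was closest to Sppl3 (a membrane protease), Rev3l (the catalytic subunit of DNA polymerase zeta) and Ccdc82, at 0.0827, 0.0964 and 0.100 on the log2 scale, where the median gene differed by 0.615. Neat1 was closest to Mafk (a small Maf transcription factor, 0.0974), Sik1 (a salt-inducible kinase, 0.111) and Cblb (a ubiquitin ligase, 0.139). Gas5 had Qser1, Tex10 and Iqgap1 (a scaffold protein of the cytoskeleton) at 0.0738 to 0.083. Snhg1 had Fam19a5, Cdr2 and Ier5 at 0.153 to 0.230, and Snhg12 had Rbbp6, Fam76b and Taf1d at 0.141 to 0.151. Kcnq1ot1 followed Brd8, Rnf215 and Txlng at 0.0536 to 0.0608, which were as flat as it was, with log2 fold changes of -0.06 to 0.01 for AKI_PBS over sham. Meg3 had no close match, with Fkbp10 nearest at 0.390 against a median of 0.749. The measure is a description and carries no test.

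The other snoRNA host RNAs asked whether Gas5, Snhg1 and Snhg12 stood alone among RNAs of their kind. This list and the gene lists below were also chosen with earlier results of the same libraries in view. Their counts and adjusted p-values are therefore not independent evidence. Of 17 listed hosts 15 were measured, and a gene was called where its edgeR quasi-likelihood p, adjusted over all 17036 genes by Benjamini-Hochberg, was under 0.05. In AKI_PBS over sham 9 hosts rose and 2 fell, with a median log2 fold change of 1.16, where 55.7% of all genes were called, 27.8% higher and 27.9% lower. In AKI_PTPi_mEVs over AKI_PBS 1 rose and 10 fell, with a median of -1.37, against 51.1% of all genes, 25.4% higher and 25.8% lower. In AKI_PTPi_mEVs over sham 0 rose and 1 fell, with a median of -0.15, against 7.43% and 5.79%, and the host that fell, Snhg11, was lost when any library of these groups other than AKI_PTPi_mEVs replicate 3 was left out (-1.35 to -1.08). Snhg9 was 1 of the 9 hosts that rose in AKI_PBS over sham and 1 of the 10 that fell in AKI_PTPi_mEVs over AKI_PBS. It passed the filter through AKI_PBS alone, so its higher level there supports nothing in either comparison. Both counts and both medians include it.

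**Figure D3:**
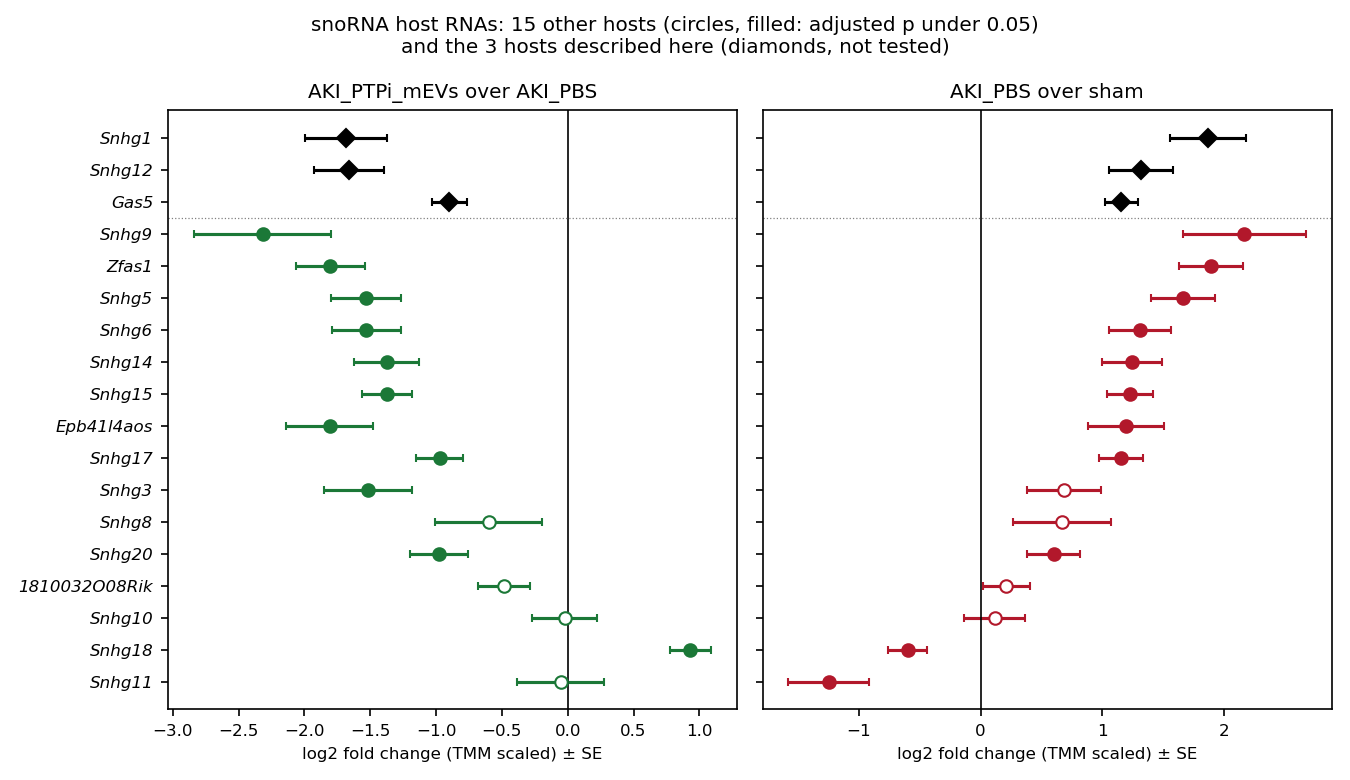
Log2 fold changes (TMM scaled, ± SE) of snoRNA host RNAs for AKI_PTPi_mEVs over AKI_PBS (left) and AKI_PBS over sham (right). Circles are 15 other hosts, filled where the edgeR adjusted p was under 0.05, and diamonds are Gas5, Snhg1 and Snhg12, for which no test was made. Zfas1 lies at -1.80 and 1.89, and Snhg18 and Snhg11 lie on the lower side for AKI_PBS over sham. Snhg9, among the circles, passed the low-count filter through AKI_PBS alone, so its position supports nothing.

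Zfas1, a host of box C/D snoRNAs, had 3.02, 2.64 and 2.06 CPM in AKI_PTPi_mEVs, 10.2, 9.47 and 9.48 in AKI_PBS and 3.54, 2.12 and 1.81 in sham libraries. Its log2 fold change was 1.89 ± 0.26 for AKI_PBS over sham (edgeR adjusted p = 6.65e-05) and -1.80 ± 0.26 for AKI_PTPi_mEVs over AKI_PBS (edgeR adjusted p = 0.000129), and in both comparisons its groups did not overlap. Snhg15 had 8.15, 9.61 and 8.24 CPM in AKI_PTPi_mEVs, 23.5, 24.4 and 24.4 in AKI_PBS and 9.71, 8.01 and 11.5 in sham libraries, with AKI_PBS above both other groups, which overlapped. It rose by 1.22 ± 0.19 in AKI_PBS over sham (edgeR adjusted p = 0.000149) and was lower by a log2 fold change of -1.37 ± 0.19 in AKI_PTPi_mEVs over AKI_PBS (edgeR adjusted p = 9.33e-05). Snhg3 had a log2 fold change of 0.69 ± 0.31 for AKI_PBS over sham, which missed the threshold (edgeR adjusted p = 0.0735), and of -1.52 ± 0.33 for AKI_PTPi_mEVs over AKI_PBS (edgeR adjusted p = 0.00218).

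Not every host went this way. Snhg18 had 47.4, 58.4 and 47.3 CPM in AKI_PTPi_mEVs, 30.7, 32.7 and 23.2 in AKI_PBS and 49.3, 40.6 and 34.6 in sham libraries, with a log2 fold change of -0.60 ± 0.16 for AKI_PBS over sham (edgeR adjusted p = 0.0061) and 0.93 ± 0.16 for AKI_PTPi_mEVs over AKI_PBS (edgeR adjusted p = 0.000395). Snhg11 had 90.1, 65.3 and 145 CPM in AKI_PTPi_mEVs, 156, 126 and 58.6 in AKI_PBS and 246, 244 and 268 in sham libraries. Every injured kidney was thus below every sham kidney, with a log2 fold change of -1.25 ± 0.33 for AKI_PBS over sham (edgeR adjusted p = 0.00748), and of -0.95 without AKI_PBS replicate 3.

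The snoRNAs that the hosts carry were nearly absent from the counts. Of 10 listed snoRNAs of Gas5 3 were matched, of 8 of Snhg1 1 was, and of 4 of Snhg12 all 4 were. Except for Snord78, every matched snoRNA had 0 counts in all 9 libraries, as did Snora16a, Snora44, Snora61 and Snord99 within Snhg12. Snord78, within Gas5, had 19, 17 and 14 counts in AKI_PTPi_mEVs, 32, 39 and 39 in AKI_PBS and 13, 15 and 20 in sham libraries, the order of groups that Gas5 itself has. Reads of the host and of the snoRNA within it cannot be told apart here, and the snoRNA levels behind the hosts were not measured.

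Genes that work with these RNAs were read from lists of named proteins. Among 17 snoRNP proteins, which package snoRNAs, 8 rose and 1 fell in AKI_PBS over sham (median 0.41), against 27.8% of all genes higher and 27.9% lower. Gar1, of the box H/ACA particle, had 3.02, 3.38 and 2.78 CPM in AKI_PTPi_mEVs, 11.7, 14.2 and 11.5 in AKI_PBS and 2.02, 2.21 and 2.38 in sham libraries, the widest difference of the list at 2.41 ± 0.23 for AKI_PBS over sham (edgeR adjusted p = 3.5e-06) and -1.91 ± 0.22 for AKI_PTPi_mEVs over AKI_PBS (edgeR adjusted p = 2.31e-05). Fbl, the methyltransferase of box C/D particles, went the same way, at 1.49 ± 0.18 (edgeR adjusted p = 2.59e-05) and -1.15 ± 0.18 (edgeR adjusted p = 0.00023). In AKI_PTPi_mEVs over AKI_PBS 4 snoRNP genes rose and 4 fell (median -0.03), with 2 falling when AKI_PTPi_mEVs replicate 3 was left out. The assembly factors Ruvbl1 (0.81 ± 0.12, edgeR adjusted p = 0.000184) and Pih1d1 (0.84 ± 0.19, edgeR adjusted p = 0.00245) were among those that rose. The shares over all genes were 25.4% higher and 25.8% lower, close to those of this list.

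Among 20 nuclear speckle proteins, the company of Malat1, 13 rose and 1 fell in AKI_PBS over sham (median 0.51), and 0 rose and 13 fell in AKI_PTPi_mEVs over AKI_PBS (median -0.51). Of all genes 27.8% were higher and 27.9% lower in AKI_PBS over sham, and 25.4% higher and 25.8% lower in AKI_PTPi_mEVs over AKI_PBS. The 1 that fell was lost without AKI_PBS replicate 1, AKI_PBS replicate 2 or sham replicate 1 (0 lower), and without AKI_PBS replicate 3 the number higher in AKI_PTPi_mEVs over AKI_PBS was 1. Son, a core protein of the speckle, had 187 to 202 CPM in AKI_PTPi_mEVs, 310 to 421 in AKI_PBS and 183 to 241 in sham libraries, and AKI_PBS did not overlap the others. Its log2 fold change was 0.77 ± 0.15 for AKI_PBS over sham (edgeR adjusted p = 0.000786) and -0.86 ± 0.15 for AKI_PTPi_mEVs over AKI_PBS (edgeR adjusted p = 0.000479). Rnps1 (1.44 ± 0.17, edgeR adjusted p = 1.81e-05) and the splicing factor Srsf5 (1.11 ± 0.13, edgeR adjusted p = 2.22e-05) had the smallest adjusted p among those that rose. Srrm2, the other core protein, was higher in AKI_PBS over sham by 0.34 ± 0.13 (edgeR adjusted p = 0.0398), a call that was lost without AKI_PBS replicate 2 (0.27), sham replicate 2 (0.27) or sham replicate 3 (0.34), with the replicate block (edgeR adjusted p = 0.06), with only the 2 groups compared (0.0596) or with no low-count filter (0.145). It fell by 0.63 in AKI_PTPi_mEVs over AKI_PBS (edgeR adjusted p = 0.00143).

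Among 20 paraspeckle proteins, the company of Neat1, 12 rose and 2 fell in AKI_PBS over sham (median 0.48), against 27.8% of all genes higher and 27.9% lower. Sfpq, which binds Neat1 and is needed for paraspeckles, had 46.1, 59.4 and 42.0 CPM in AKI_PTPi_mEVs, 80.5, 99.6 and 126 in AKI_PBS and 40.9, 32.7 and 33.0 in sham libraries. Its log2 fold change was 1.45 ± 0.19 for AKI_PBS over sham (edgeR adjusted p = 4.37e-05) and -0.96 ± 0.19 for AKI_PTPi_mEVs over AKI_PBS (edgeR adjusted p = 0.00107). As with Neat1, replicate 3 was the highest AKI_PBS library. Taf15 (1.28 ± 0.21, edgeR adjusted p = 0.000281) rose as well, while Hnrnpr and Hnrnph3 fell by 0.61 and 0.63 (edgeR adjusted p = 0.00186 and 0.00199). Pspc1, a core protein, did not pass the test (0.14 ± 0.15, edgeR adjusted p = 0.437). Nono, the partner of Sfpq, was higher by 0.33 ± 0.12 (edgeR adjusted p = 0.0297), a call lost without AKI_PBS replicate 1 (0.28) or without sham replicate 1 (0.28), 2 (0.33) or 3 (0.34), with the replicate block (edgeR adjusted p = 0.053), with only the 2 groups compared (0.0523) or with no low-count filter (0.166). In AKI_PTPi_mEVs over AKI_PBS 3 rose and 7 fell (median -0.16, against 25.4% of all genes higher and 25.8% lower), with 4 falling when AKI_PTPi_mEVs replicate 1 was left out.

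**Figure D4:**
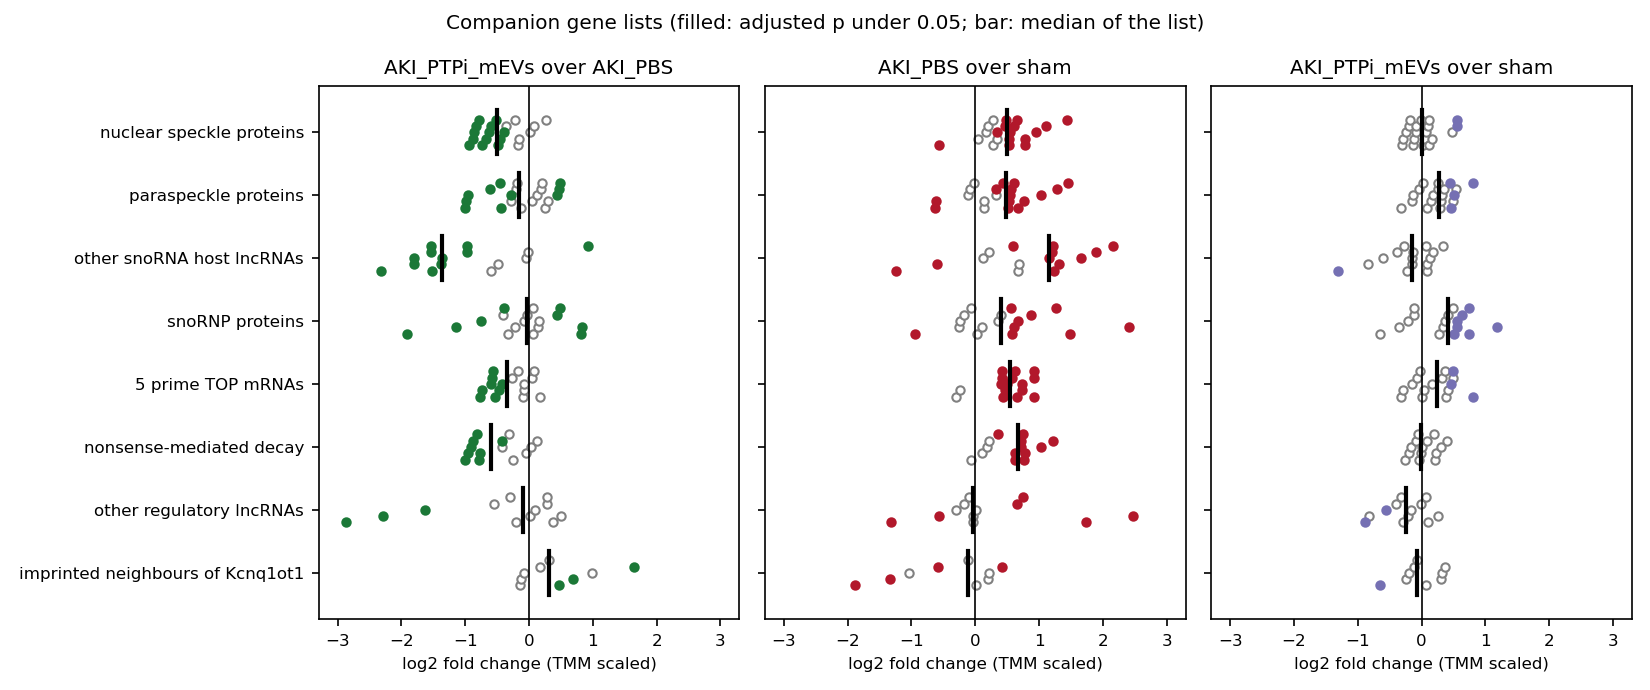
Log2 fold changes (TMM scaled) of the genes of 8 lists in the 3 comparisons. Each point is a gene, filled where the edgeR adjusted p was under 0.05, and black bars are list medians. The medians of the nuclear speckle proteins, the other snoRNA hosts and the decay factors lie above 0 for AKI_PBS over sham and below 0 for AKI_PTPi_mEVs over AKI_PBS. Those of the TOP mRNAs, the paraspeckle proteins and the snoRNP proteins have the same signs, at -0.34, -0.16 and -0.03 in the latter comparison.

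The factors of nonsense-mediated decay, which remove spliced host RNAs, and the TOP mRNAs, which share the pyrimidine start, were read beside the hosts. Of 14 decay factors 10 rose and 0 fell in AKI_PBS over sham (median 0.67), and 0 rose and 8 fell in AKI_PTPi_mEVs over AKI_PBS (median -0.60). For this list and the next, the shares over all genes were 27.8% higher and 27.9% lower in AKI_PBS over sham, and 25.4% higher and 25.8% lower in AKI_PTPi_mEVs over AKI_PBS. Casc3, of the exon junction complex, had a log2 fold change of 1.22 ± 0.19 (edgeR adjusted p = 0.000137) and -1.01 ± 0.19 (edgeR adjusted p = 0.000682) in these comparisons. Upf1, the helicase at the centre of the pathway, was higher in AKI_PBS over sham by 0.62 ± 0.20 (edgeR adjusted p = 0.0178), a call lost without AKI_PBS replicate 3 (0.48), sham replicate 1 (0.59) or sham replicate 2 (0.57), and fell by 0.88 in AKI_PTPi_mEVs over AKI_PBS (edgeR adjusted p = 0.0028). Of 16 TOP mRNAs 14 rose and 0 fell in AKI_PBS over sham (median 0.54), with 9 called without AKI_PBS replicate 1 and 7 without sham replicate 2, and 0 rose and 8 fell in AKI_PTPi_mEVs over AKI_PBS (median -0.34). Npm1, a nucleolar chaperone, rose by 0.92 ± 0.14 (edgeR adjusted p = 0.000164), and its log2 fold change in AKI_PTPi_mEVs over AKI_PBS was -0.53 ± 0.14 (edgeR adjusted p = 0.0078). The TOP list had a smaller median difference than the snoRNA hosts in both comparisons, and no test was made of the difference between the lists.

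In AKI_PTPi_mEVs over sham, 2252 genes were called, 13.2% of those tested, with 7.43% higher and 5.79% lower. The list of 17 snoRNP genes had 7 higher and 0 lower, with Nop58 (1.18 ± 0.16, edgeR adjusted p = 0.000752) and Nop56 (0.74 ± 0.15, edgeR adjusted p = 0.00682), the core proteins of box C/D particles, at the top. Of 20 paraspeckle genes 4 were higher and 0 lower, and of 20 speckle genes 2 and 0. Of 16 TOP genes 3 were higher and 0 lower, and of 14 decay factors 0 and 0. The speckle count is near the share over all genes. The count of all genes fell to 1184 without sham replicate 1, 938 without sham replicate 2, 1487 without AKI_PTPi_mEVs replicate 1 and 878 without AKI_PTPi_mEVs replicate 2. Leaving out any 1 library of these groups left 2 to 6 of the snoRNP genes called higher, 1 or 2 of the paraspeckle genes, 1 to 3 of the TOP genes and 0 of the speckle genes, with 2 snoRNP genes higher and 1 lower without AKI_PTPi_mEVs replicate 2.

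Around the genes of the 7 RNAs, values are given for neighbouring genes. Malat1 and Neat1 lie next to each other on chromosome 19. Frmd8, on the Neat1 side, rose by 0.78 ± 0.14 (edgeR adjusted p = 0.00044), and its log2 fold change in AKI_PTPi_mEVs over AKI_PBS was -0.45 ± 0.14 (edgeR adjusted p = 0.0159), a call that was lost without AKI_PBS replicate 2 (-0.39) or AKI_PTPi_mEVs replicate 2 (-0.37). Slc3a2 and Wdr74, which flank Snhg1, rose by 0.81 ± 0.15 (edgeR adjusted p = 0.000742) and 0.81 ± 0.13 (edgeR adjusted p = 0.000246) in AKI_PBS over sham, beside 1.87 for Snhg1. Neither was called in AKI_PTPi_mEVs over AKI_PBS, at -0.32 ± 0.15 for Slc3a2 (edgeR adjusted p = 0.0983) and -0.31 ± 0.13 for Wdr74 (edgeR adjusted p = 0.0632), beside -1.69 for Snhg1. Slc3a2 was called without AKI_PTPi_mEVs replicate 3 (-0.49) and Wdr74 without AKI_PTPi_mEVs replicate 2 (-0.41). Both were also called lower with libraries scaled by their totals, at -0.43 for Slc3a2 and -0.42 for Wdr74. No test was made of the differences from Snhg1. Trnau1ap, beside Snhg12, was flat (0.01 ± 0.18, edgeR adjusted p = 0.976).

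**Figure D5:**
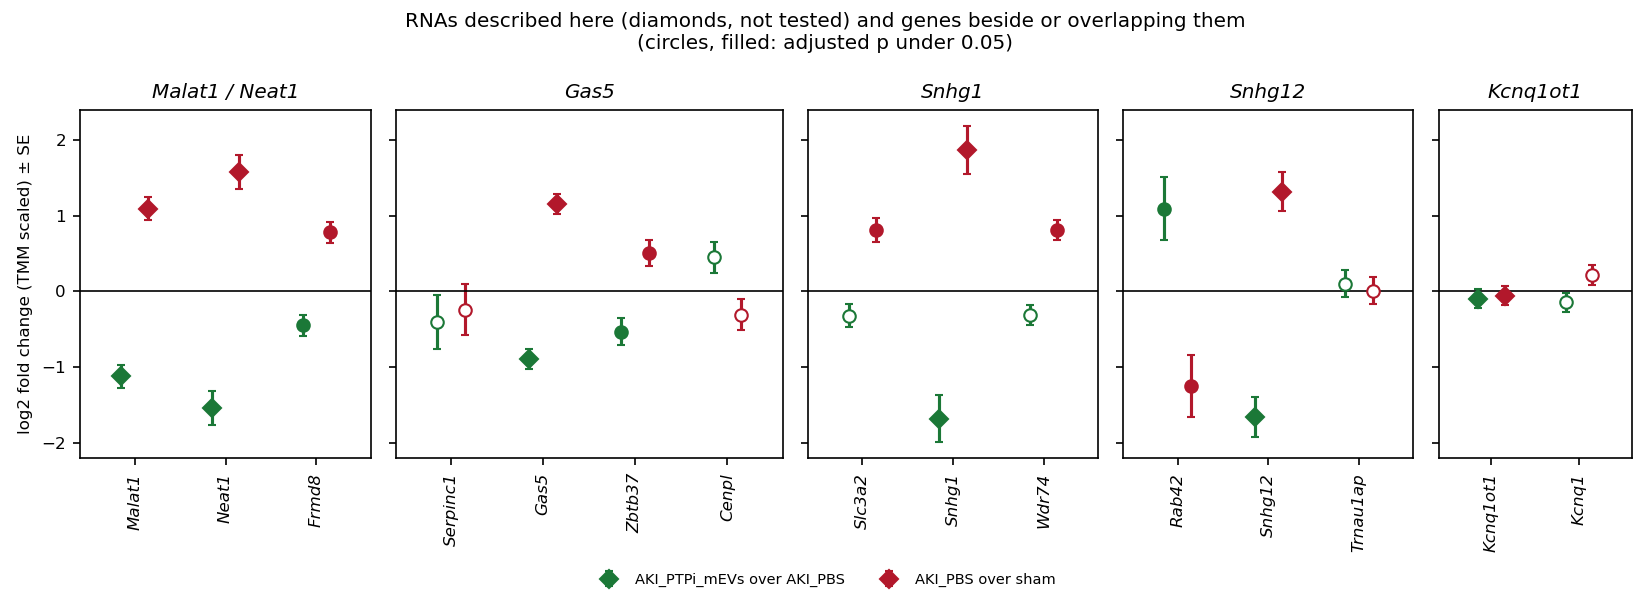
Log2 fold changes (TMM scaled, ± SE) of the RNAs (diamonds, no test) and of measured genes beside or overlapping them (circles, filled where the edgeR adjusted p was under 0.05), for AKI_PTPi_mEVs over AKI_PBS (green) and AKI_PBS over sham (red), with not every neighbour drawn. Frmd8 lies at -0.45 and 0.78, and Trnau1ap near 0 in AKI_PBS over sham.

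Whether counting used strand is not stated in the labels, and reads of overlapping genes on opposite strands cannot be told apart, which touches Gas5 with Zbtb37, Kcnq1ot1 with Kcnq1, and Meg3 with Rtl1. Kcnq1 itself averaged 38.1 CPM in AKI_PTPi_mEVs, 45.4 in AKI_PBS and 36.9 in sham libraries, with a log2 fold change of 0.22 ± 0.13 for AKI_PBS over sham (edgeR adjusted p = 0.172).

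Of 9 measured imprinted neighbours of Kcnq1ot1, 1 rose and 3 fell in AKI_PBS over sham, against 27.8% of all genes higher and 27.9% lower. In AKI_PTPi_mEVs over AKI_PBS 3 rose and 0 fell, against 25.4% higher and 25.8% lower, so the larger count in each comparison is near the share over all genes. The 1 that rose was lost (0 higher) without AKI_PBS replicate 2 or sham replicate 2. Slc22a18, an organic cation transporter, had 602, 480 and 665 CPM in AKI_PTPi_mEVs, 373, 346 and 446 in AKI_PBS and 872, 902 and 1003 in sham libraries, and its log2 fold change was -1.33 ± 0.18 for AKI_PBS over sham (edgeR adjusted p = 4.63e-05) and 0.69 ± 0.17 for AKI_PTPi_mEVs over AKI_PBS (edgeR adjusted p = 0.00558). Cdkn1c, the cell cycle inhibitor that Kcnq1ot1 is known to silence, had a log2 fold change of -0.11 ± 0.28 for AKI_PBS over sham (edgeR adjusted p = 0.765). In the cluster of Meg3 the other non-coding RNAs were scarcer still, with at most 2 counts of Mirg in any library and 3, 1 and 4 counts of Rian in AKI_PTPi_mEVs, 4, 3 and 3 in AKI_PBS and 6, 3 and 4 in sham libraries. Dio3, the thyroid hormone deiodinase at the far end of that cluster, had 2, 1 and 2 counts in AKI_PTPi_mEVs, 19, 13 and 31 in AKI_PBS and 0, 2 and 0 in sham libraries, and it passed the filter through AKI_PBS alone.

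A list of 18 other regulatory long non-coding RNAs was read beside the 7, and 12 of them were measured. In AKI_PBS over sham 4 rose and 2 fell (median -0.03), against 27.8% of all genes higher and 27.9% lower. None rose and 3 fell in AKI_PTPi_mEVs over AKI_PBS (median -0.10), against 25.4% and 25.8%. Without sham replicate 1 the number that rose was 2. The number that fell was 1 without any 1 AKI_PBS library, sham replicate 1 or sham replicate 2, and 1 rose in AKI_PTPi_mEVs over AKI_PBS without AKI_PTPi_mEVs replicate 2, where Airn was called (0.77). Mir22hg, the host of miR-22, had 66.0, 56.4 and 56.2 CPM in AKI_PTPi_mEVs, 278, 304 and 356 in AKI_PBS and 81.3, 84.0 and 100.3 in sham libraries, and its log2 fold change was 1.74 ± 0.16 for AKI_PBS over sham (edgeR adjusted p = 2.84e-06) and -2.29 ± 0.16 for AKI_PTPi_mEVs over AKI_PBS (edgeR adjusted p = 1.01e-06). Mir17hg, the host of the miR-17 cluster, had 3.94, 3.70 and 2.47 CPM in AKI_PTPi_mEVs, 12.3, 13.9 and 51.7 in AKI_PBS and 6.68, 3.78 and 3.23 in sham libraries, and its log2 fold change of 2.48 ± 0.54 (edgeR adjusted p = 0.00235) for AKI_PBS over sham was 1.42 without AKI_PBS replicate 3, and the -2.87 ± 0.56 for AKI_PTPi_mEVs over AKI_PBS (edgeR adjusted p = 0.00134) was -1.81. Airn, an imprinted antisense RNA like Kcnq1ot1, was at 15.1, 11.4 and 28.7 in AKI_PTPi_mEVs, 14.5, 15.1 and 12.7 in AKI_PBS and 44.4, 26.2 and 30.2 in sham libraries, a log2 fold change of -1.32 ± 0.30 for AKI_PBS over sham (edgeR adjusted p = 0.00218). Norad, listed under an older symbol, did not pass the test (-0.03 ± 0.16, edgeR adjusted p = 0.887), and Tug1 had 1 count in all 9 libraries together.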

How the data were processed

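The deposited table holds read counts per Ensembl gene for the 9 libraries. Per the labels' protocols, phenol-chloroform gave the total RNA, and a Tn5-based kit the libraries. The submitters' processing notes name STAR, HTSeq and the build GRCh38.p14, a human build, while the gene identifiers are mouse, so the build behind the counts is not settled. Symbols were found for 52073 of the 56923 identifiers. Library totals ran from 9467851 to 11389479, which leaves the RNAs with few counts a wide counting error.

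Counts were fitted with edgeR 4.0.16 (R 4.3.3): TMM scaling, a low-count filter by group, robust quasi-likelihood fits over all 9 libraries, and Benjamini-Hochberg adjustment over 17036 genes, called at an adjusted p under 0.05. The scripts were tested on simulated data. No 2 libraries of the same group agreed within sampling noise. Alternatives were DESeq2 1.42.0, other scalings and filters, only the 2 groups compared, a replicate block and each library left out. Shares are CPM, computed from those counts and the library totals. Likeness used log2 CPM with a prior count of 2. Promoters are RefSeq's.

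The 7 RNAs and the companion lists were chosen with earlier results of these data known. Named genes were the fixed panel of each list and up to 2 called genes with the smallest adjusted p per direction and comparison, with nearest neighbours and the 3 most like genes. Snhg9 lies outside that rule and was named after its values were seen. Figures were drawn with matplotlib 3.10.9. Some neighbouring and list genes are not reported here.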

Additional observations from a re-analysis of the deposited data

How the results depend on the processing

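Over all alternatives run, no value reversed its direction past its threshold. For AKI_PTPi_mEVs over sham, the 2252 genes called became 878 to 1771 when 1 library was left out, and the companion genes called became 4 to 11 higher (16 with all libraries) and 0 to 4 lower (4 with all libraries). An omission also leaves fewer samples, and the cause of the drop was not tested. With only the 2 groups compared, 3259 genes were called in this comparison. For AKI_PBS over sham the same omissions gave 8028 to 9515 genes, and for AKI_PTPi_mEVs over AKI_PBS 7337 to 8673. Among the 7 RNAs, 271 values under alternatives stayed within the spread between libraries and 2 moved, both of Neat1 without AKI_PBS replicate 3 (1.22 and -1.19). With the replicate block, 9213, 8491 and 2050 genes were called for AKI_PBS over sham, AKI_PTPi_mEVs over AKI_PBS and AKI_PTPi_mEVs over sham. The correlation of same-numbered libraries was -0.19 to 0.11, which does not settle whether they share anything beyond a number. The low counts of Meg3, Snhg1 and Snhg12 limit the precision of their shares.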
